A study of Rattus norvegicus with 29 samples.

Results

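The rows of the miRNA count table that belong to the miR-219 and miR-338 families were examined in plasma of 29 rats. A row was included when its name, less the rno- prefix for rat, had the exact stem miR-219a, miR-219b or miR-338, whatever its copy or arm. This gave 6 of 754 rows: rno-miR-219a-5p, rno-miR-219a-1-3p, rno-miR-219a-2-3p, rno-miR-219b, rno-miR-338-3p and rno-miR-338-5p. All 6 were among the 751 miRNAs that passed the filter on low counts. Plasma came from the tail vein of adult male Sprague-Dawley rats 48 h after surgery at UEF, Monash or UCLA. Injured rats had lateral fluid-percussion injury, in which a pressure pulse of fluid is delivered to the brain surface through an opening in the skull, and sham rats were operated on alike but received no pressure pulse. Months later, continuous video-EEG divided the injured rats into those with epilepsy (TBI+) and those without (TBI-). There were 4 sham, 4 TBI- and 4 TBI+ rats from UEF, 3, 3 and 2 from Monash, and 3, 3 and 3 from UCLA. Each rat was 1 library.

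Oligodendrocytes wrap axons in myelin, and miR-219 and miR-338 are among the miRNAs that accumulate as their precursors leave the cell cycle and mature. Both families are known for repressing factors that hold these precursors in an immature state, such as the growth factor receptor Pdgfra and the transcription factors Sox6 and Hes5. A miRNA is cut from a hairpin transcript, and the names 5p and 3p give the arm it comes from. Its seed, bases 2 to 8, is the part that pairs with a target mRNA. Plasma holds miRNAs released by many tissues, and a plasma count does not show which cell released a molecule. The link to oligodendrocytes is background here, because plasma has no oligodendrocytes against which the label could be checked.

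All 6 mature sequences were found in RefSeq (build GRCr8). They are shown with the seed in capitals, because the 6 rows are 6 different molecules whose families share a name and not always a seed.
rno-miR-219a-5p: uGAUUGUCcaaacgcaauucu
rno-miR-219a-1-3p: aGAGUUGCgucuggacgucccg
rno-miR-219a-2-3p: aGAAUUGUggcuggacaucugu
rno-miR-219b: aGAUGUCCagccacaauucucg
rno-miR-338-3p: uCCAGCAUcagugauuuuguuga
rno-miR-338-5p: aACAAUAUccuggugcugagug

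No seed was shared between members, and 0 of the other table rows with a RefSeq sequence (674 of 754 rows had one) carried any of the 6 seeds. The opposite arms of the miR-219a hairpins, rno-miR-219a-1-3p and rno-miR-219a-2-3p, were identical at 15 of 22 positions and at 5 of the 7 positions of the seed. The hairpins are shown next, with every stretch that matches a member in capitals.
Mir219-2: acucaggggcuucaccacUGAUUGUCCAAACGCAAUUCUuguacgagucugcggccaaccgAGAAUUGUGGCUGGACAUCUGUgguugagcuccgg
Mir219a1: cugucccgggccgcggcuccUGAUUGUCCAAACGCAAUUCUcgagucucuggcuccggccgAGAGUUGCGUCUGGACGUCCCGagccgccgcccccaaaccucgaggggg
Mir338: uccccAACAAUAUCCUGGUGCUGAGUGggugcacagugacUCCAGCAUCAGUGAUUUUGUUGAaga

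In GRCr8 Mir219-2 lies at chr3:33516504-33516599 on the minus strand, Mir219a1 at chr20:4831580-4831689 on the plus strand and Mir338 at chr10:105796342-105796407 on the minus strand. In the RefSeq gene table Mir338 overlaps Aatk and Mir3065, Mir219-2 overlaps Cercam, Mir2964 and a long non-coding RNA, and Mir219a1 lies near Ring1 and Hsd17b8. The files give no coordinates and were made with Rnor_6.0, so these positions are from the RefSeq build alone. The whole of rno-miR-219a-5p occurs in both the Mir219-2 and the Mir219a1 hairpin. A count of rno-miR-219a-5p therefore cannot be assigned to either locus, whereas the 3p arms differ and can. rno-miR-219b comes from the strand opposite to rno-miR-219a-2-3p, and over the 20 positions that both cover, each is the reverse complement of the other. The Mir338 locus has the same arrangement: rno-miR-338-3p and rno-miR-338-5p share 20 and 19 positions with the opposite-strand miR-3065-5p and miR-3065-3p, which the table lists as rows of their own. Whether the counting used strand is not given in the sources used here, so the values of these opposite-strand pairs may hold reads of each other.

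Total miRNA counts ranged from 1162307 to 5223469 per rat, with a median of 2713557. Blood-cell miRNAs, usual in plasma, were abundant: 5 red cell miRNAs took 6.82% to 43.1% of the counts of a rat. UEF sham 3 had the highest total, and there 4 liver miRNAs took 57.6% of counts. In addition, 9 libraries that are adjacent in the column order of the table stood apart across site and outcome labels: all 3 Monash sham, all 3 Monash TBI- and all 3 UCLA TBI+ libraries. In them miR-673-3p, chosen after its values were seen, was at 4.70 to 9.52 CPM (a count scaled to a common library size, explained with the levels), against 35.6 to 87.8 in the other 20. Fitted as a term beside site and outcome, the difference between the 9 and the other 20 libraries was called for 152 of 751 miRNAs (20.2%). The 9 were set apart after these same counts were seen, so this count describes the split and is not an independent test of it. No label names what they share, so the main results that rest on them are given with and without them.

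The 6 members were of middling and low abundance in plasma. Levels are given as CPM, the count divided by the library's effective size and put on the usual common scale. The effective size came from the trimmed mean of M values (TMM), which adjusts each library for a few miRNAs that take many counts. For UEF sham 3 the TMM factor was 0.33, which raises its CPM. Its rno-miR-338-3p was at 58.6 CPM, against 19.5 without the factor. Over the 29 rats rno-miR-219a-1-3p averaged 39.1 ± 12.4 CPM (SD), rno-miR-219a-5p 38.8 ± 14.1 and rno-miR-338-3p 36.7 ± 10.3. The mean was 33.3 ± 17.7 CPM for rno-miR-219b, 24.5 ± 8.72 for rno-miR-338-5p and 18.4 ± 6.53 for rno-miR-219a-2-3p. Each level in this order lay within the larger SD of its neighbour. That SD is a spread between rats and not of differences within a rat, and the order of neighbours was not tested. By mean level they ranked 353 to 528 of 751 tested miRNAs, whose median was 35.7 CPM. Every member had reads in every rat, from 15 to 241 counts, and together they took 0.00659% to 0.0397% of a rat's miRNA counts. Counting error alone is 25.8% at 15 counts, 11.5% at the members' median of 76 and 6.44% at 241 counts.

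The members differed in how far they varied between rats. rno-miR-338-3p was among the steadiest miRNAs of the table: the SD of its log2 CPM was 0.36, and 4.39% of tested miRNAs had a lower one. At the other end, rno-miR-219b had an SD of 0.78, above that of 74.4% of tested miRNAs, and a highest value 9.45 times its lowest. The remaining 4 members had SDs of 0.43 to 0.54, below the median of 0.63 over all tested miRNAs.

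**Figure D1:**
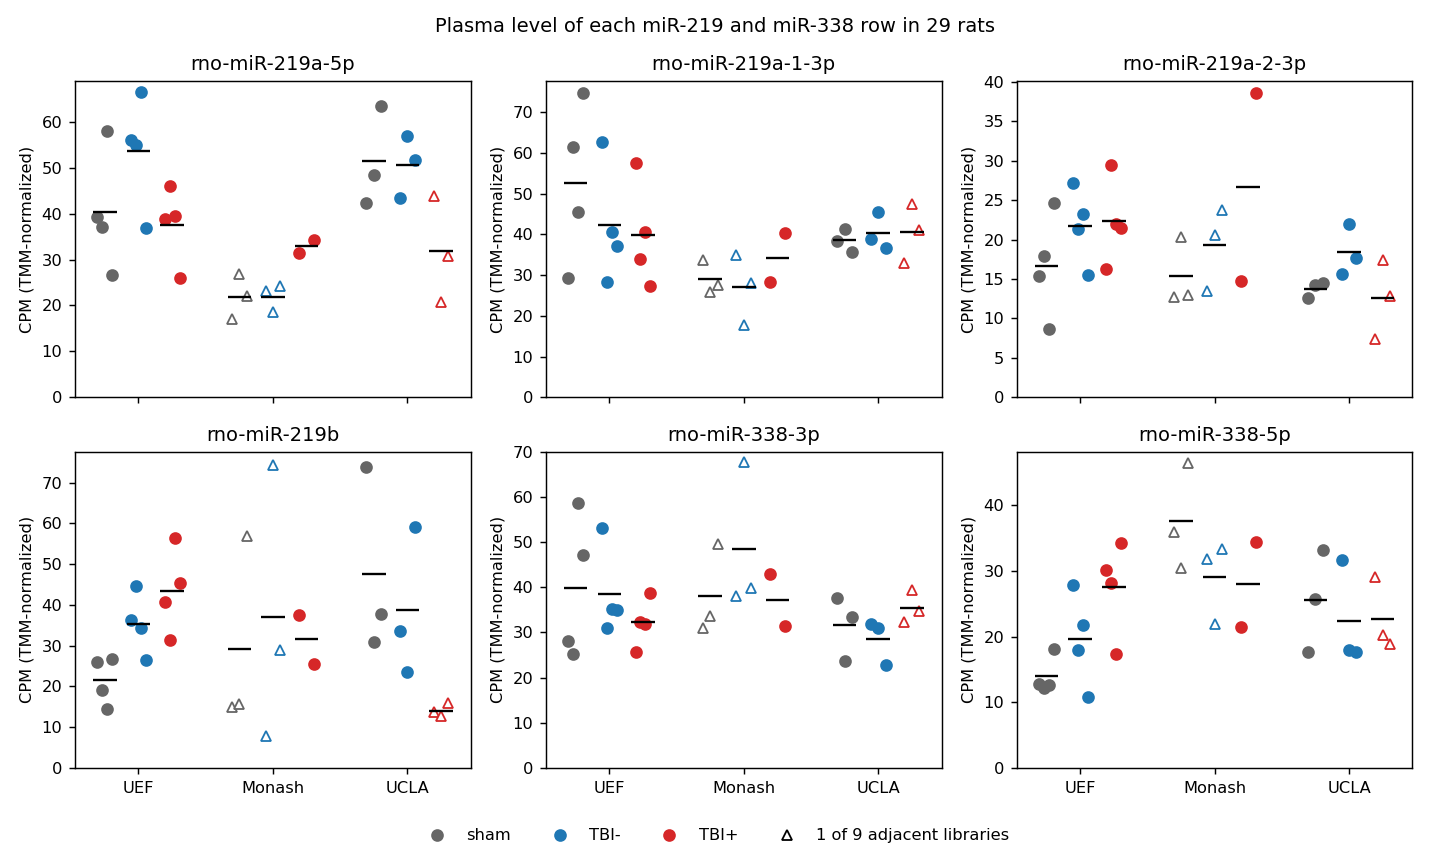
Plasma level of each member in every rat, in TMM-normalized CPM (vertical axes from 0), by site and outcome. Points are rats, short lines are group means, and open triangles mark the 9 libraries adjacent in the table. rno-miR-219a-5p is low in the Monash rats (17.1 to 34.4 CPM), and rno-miR-219b is at 12.7 to 15.9 CPM in the 3 UCLA TBI+ rats.

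The main comparison asked whether injury changed the plasma level of these miRNAs at 48 h. No member was called between TBI and sham rats (edgeR quasi-likelihood test over 751 miRNAs, Benjamini-Hochberg threshold 0.05). The background was 9 of 751 called, or 1.2%. The arm nearest to a difference was rno-miR-219a-2-3p, the other arm of the Mir219-2 hairpin beside rno-miR-219a-5p.

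rno-miR-219a-2-3p had its lowest, median and highest levels at 8.62, 14.4 and 24.7 CPM in 10 sham rats. In 19 TBI rats the corresponding levels were 7.36, 20.6 and 38.5 CPM. The groups overlapped over most of their range. The fitted difference was 0.36 on the log2 scale (SE 0.19, 95% CI -0.03 to 0.76; edgeR adjusted p = 0.551). The two-sided exact permutation test within sites gave p = 0.0613, unadjusted. Mean differences in log2 CPM were 0.45 for UEF, 0.45 for Monash and 0.09 for UCLA. Against the same sham rats, the difference was 0.38 in TBI- rats (SE 0.22, edgeR adjusted p = 0.593) and 0.35 in TBI+ rats (SE 0.22, adjusted p = 0.815). The TBI+ value was 0.15 without Monash TBI+ 2, the rat at 38.5 CPM. In plasma, a different number of releasing cells and a different release per cell cannot be told apart. In those 2 comparisons 1 and 4 of 751 miRNAs were called (0.133% and 0.533%), and 0 of the 6 members.

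rno-miR-219a-5p, the arm most often measured as miR-219, was at 17.1, 38.1 and 63.5 CPM (lowest, median, highest) in sham rats. TBI rats had 18.5, 38.9 and 66.4 CPM, almost the same range. The log2 difference was 0.02 (SE 0.17, 95% CI -0.33 to 0.38, edgeR adjusted p = 0.973), an interval that leaves out larger changes in either direction. rno-miR-219a-1-3p, the 3p arm of the other hairpin, was at 25.9, 37.1 and 74.8 CPM in sham rats and at 17.9, 37.2 and 62.7 CPM in TBI rats. It differed by -0.12 (SE 0.16, 95% CI -0.46 to 0.21, edgeR adjusted p = 0.878).

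rno-miR-338-3p, the main arm of Mir338, was at 23.8, 33.6 and 58.6 CPM in sham rats and at 22.8, 34.7 and 67.8 CPM in TBI rats. The groups overlapped completely but for single rats at the ends, and the log2 difference was -0.01 (SE 0.16, 95% CI -0.33 to 0.32, edgeR adjusted p = 0.989). Its sign turned without UEF sham 3 (0.10, adjusted p = 0.979). Its partner rno-miR-338-5p had 12.2, 21.9 and 46.3 CPM in sham rats and 10.8, 21.9 and 34.4 CPM in TBI rats. The difference was 0.11 (SE 0.19, 95% CI -0.28 to 0.51, adjusted p = 0.914). rno-miR-219b had the widest interval, 0.10 (SE 0.31, 95% CI -0.54 to 0.73, adjusted p = 0.945), with levels of 14.4 to 73.9 CPM in sham and 7.86 to 74.2 CPM in TBI rats. The median log2 difference over the 6 members was 0.06 and over all 751 miRNAs 0.03. With the term for the 9 adjacent libraries the members ran from -0.12 to 0.37. Without those libraries, which hold every Monash sham rat, rno-miR-219b was 0.46, rno-miR-338-5p 0.43 and rno-miR-219a-2-3p 0.36. There rno-miR-219a-5p was -0.086, rno-miR-338-3p -0.30 and rno-miR-219a-1-3p -0.31. The lowest edgeR adjusted p of a member was then 0.355.

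TBI+ and TBI- rats were compared for a level at 48 h that went with epilepsy months later. No member was called, in a comparison where 0 of 751 miRNAs were called (0%) by edgeR at the adjusted threshold and 18 had an unadjusted p under 0.05. rno-miR-219a-5p was at 18.5, 47.5 and 66.4 CPM (lowest, median, highest) in 10 TBI- rats and at 20.7, 34.4 and 45.9 CPM in 9 TBI+ rats. All TBI+ values lay inside the TBI- range. The difference, TBI+ minus TBI-, was -0.27 on the log2 scale (SE 0.20, 95% CI -0.69 to 0.14, edgeR adjusted p = 0.998), and -0.17 without UCLA TBI+ 2. rno-miR-338-5p lay at the other end of the members, at 0.25 (SE 0.22, 95% CI -0.20 to 0.70, adjusted p = 0.998), and 0.16 without UEF TBI+ 4. Its levels were 10.8, 21.8 and 33.3 CPM in TBI- rats and 17.4, 28.1 and 34.4 CPM in TBI+ rats. The 9 adjacent libraries hold every UCLA TBI+ and every Monash TBI- rat. With the term for them the differences of rno-miR-219a-5p and rno-miR-338-5p were -0.25 and 0.25 (both adjusted p = 0.994), and without those libraries -0.42 and 0.62 (both adjusted p = 0.995). Outside those libraries only UEF has both TBI- and TBI+ rats, so the last values hold no direct comparison at Monash or UCLA.

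**Figure D2:**
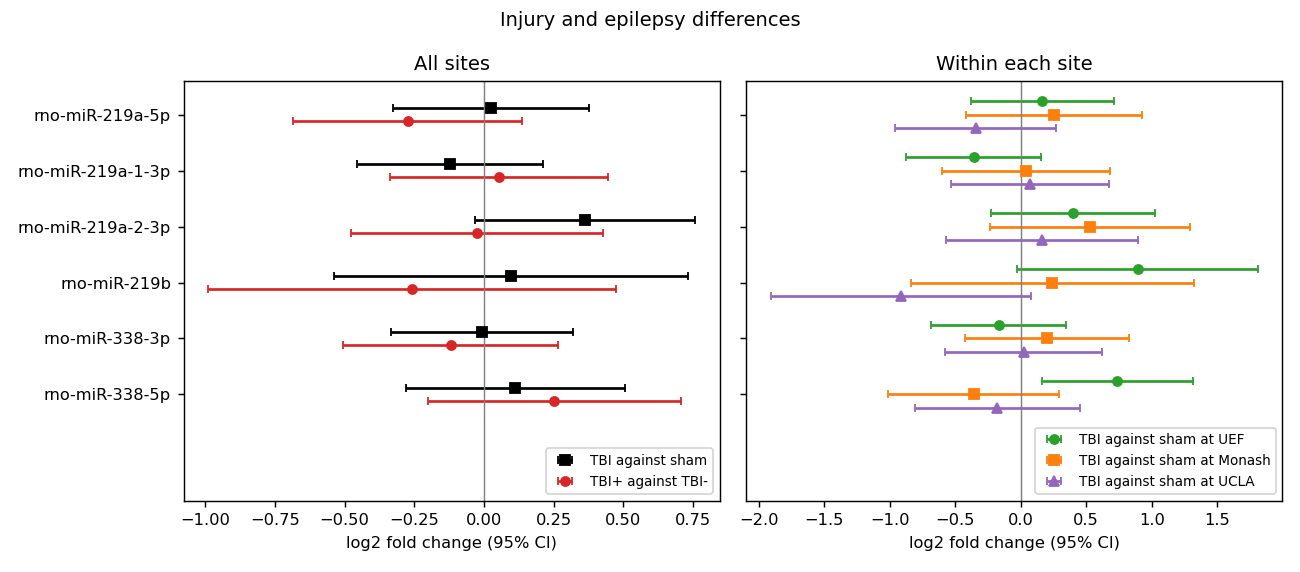
Fitted log2 fold changes with 95% confidence intervals (edgeR) for the 6 members. The left panel shows TBI against sham and TBI+ against TBI- over all sites, and every interval includes 0. The right panel shows TBI against sham within each site, where rno-miR-338-5p at UEF is 0.74 with an interval of 0.16 to 1.31, the one interval there without 0.

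The 3 sites, whose procedures were harmonized but not alike in every detail, were compared next. Here 111 of 751 miRNAs were called over the 3 sites together (14.8%). Among the members rno-miR-219a-5p was called (edgeR adjusted p = 0.0116), while rno-miR-338-5p (adjusted p = 0.0723), rno-miR-219a-1-3p (0.0816), rno-miR-219a-2-3p (0.277), rno-miR-338-3p (0.384) and rno-miR-219b (0.989) were not.

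rno-miR-219a-5p was lowest at Monash. The 8 Monash rats had 17.1, 26.8 and 21.95 CPM in sham, 23.1, 18.5 and 24.2 in TBI- and 31.3 and 34.4 in TBI+ rats. At UEF the lowest, median and highest of 12 rats were 26.0, 39.3 and 66.4 CPM, and at UCLA those of 9 rats were 20.7, 43.8 and 63.5 CPM. Monash overlapped both other sites at their lower ends. The UEF level was higher than the Monash level by 0.81 on the log2 scale (SE 0.21, 95% CI 0.39 to 1.24, edgeR adjusted p = 0.0165), in a comparison where 75 of 751 miRNAs were called (9.99%). Monash was lower than UCLA by a difference of -0.84 (SE 0.22, 95% CI -1.29 to -0.40, adjusted p = 0.0156), where 41 miRNAs were called (5.46%). Between UEF and UCLA 70 miRNAs were called (9.32%), and 0 of the 6 members. There rno-miR-219a-5p, at neighbouring levels, did not differ beyond its spread. Exact two-sided permutation tests within outcome groups gave p = 0.00098 for UEF against Monash and p = 0.00425 for Monash against UCLA, unadjusted.

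This site difference overlaps with the 9 adjacent libraries, since 6 of the 8 Monash rats are among them. The 6 had 17.1 to 26.8 CPM of rno-miR-219a-5p. The 2 Monash rats outside the 9 had 31.3 and 34.4 CPM, and the UEF rats spanned that level. At UCLA, the 3 rats among the 9 had 43.8, 20.7 and 30.9 CPM, and the 6 others 42.4 to 63.5 CPM. With a term for the 9 libraries, they were lower than the other 20 by a difference of -0.61 (SE 0.20, 95% CI -1.03 to -0.20, edgeR adjusted p = 0.0284). Because the 9 were set apart after the counts were seen, this p is not an independent test of the split. In that fit the 3 sites were no longer called for rno-miR-219a-5p (adjusted p = 0.119). UEF against Monash was then 0.39 (adjusted p = 0.494) and Monash against UCLA -0.60 (adjusted p = 0.0876). With the 9 left out, the first difference was 0.21 (adjusted p = 0.994) and the second -0.30 (adjusted p = 0.862). The other 5 members were not called for the term: it was -0.90 (SE 0.44, adjusted p = 0.139) for rno-miR-219b, -0.50 (SE 0.25, adjusted p = 0.144) for rno-miR-219a-2-3p and 0.24 (SE 0.21, adjusted p = 0.407) for rno-miR-338-3p.

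**Figure D3:**
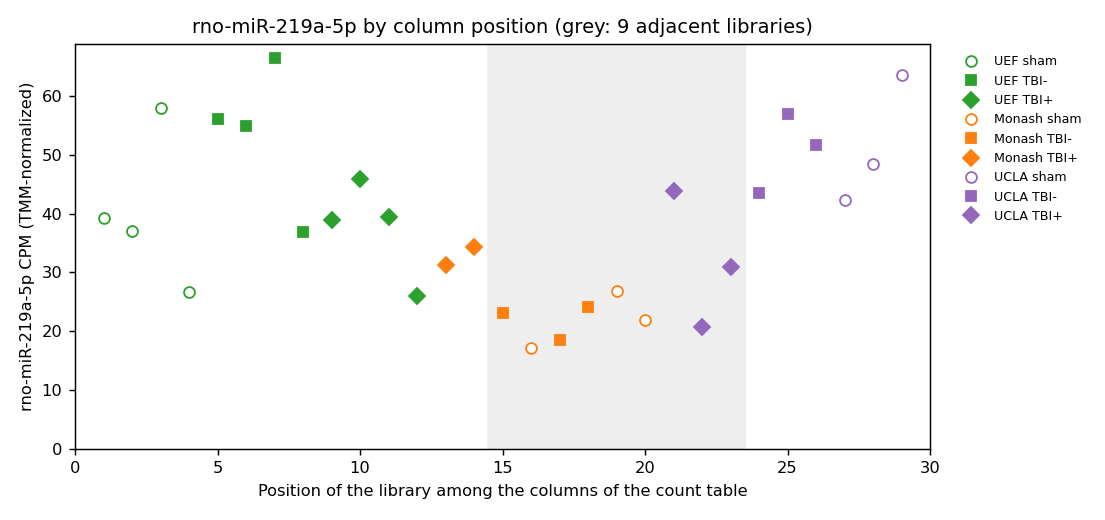
Level of rno-miR-219a-5p in each rat (TMM-normalized CPM, axis from 0) against the position of its library among the columns of the count table. Colours mark sites, open circles sham, squares TBI- and diamonds TBI+ rats. The grey band holds the 9 adjacent libraries, at 17.1 to 43.8 CPM, against 26.0 to 66.4 CPM in the other 20.

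The other 2 members called between UEF and Monash differed in opposite directions. rno-miR-219a-1-3p was higher at UEF by 0.60 (SE 0.20, 95% CI 0.20 to 1.00, edgeR adjusted p = 0.0472), with 27.4 to 74.8 CPM at UEF and 17.9 to 40.2 CPM at Monash. rno-miR-338-5p was lower at UEF, by a difference of -0.69 (SE 0.22, 95% CI -1.15 to -0.24, adjusted p = 0.0456), with 10.8 to 34.3 CPM at UEF and 21.5 to 46.3 CPM at Monash. Neither was called with the term for the 9 libraries, where the differences were 0.52 (adjusted p = 0.352) and -0.68 (adjusted p = 0.333), or without those libraries, at 0.22 and -0.04 (both adjusted p = 0.994). With the term 0 of 751 miRNAs were called between UEF and Monash by edgeR (104 at an unadjusted p under 0.05), and without the 9 libraries also 0 (53 unadjusted). Each of these 2 calls was also lost without single rats, in 26 of 29 and 19 of 29 fits with 1 rat left out, and that of rno-miR-219a-5p without Monash TBI- 3 (0.73, adjusted p = 0.0511). DESeq2 without the term called all 3 members between UEF and Monash, and its version with the term was not run. The edgeR calls were lost under other alternatives too: scaled to miR-28-3p, which the study used as a reference miRNA, the adjusted p was 0.122 for rno-miR-219a-5p, 0.183 for rno-miR-219a-1-3p and 0.411 for rno-miR-338-5p. In TBI rats alone the values were 0.218, 0.465 and 0.631.

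**Figure D4:**
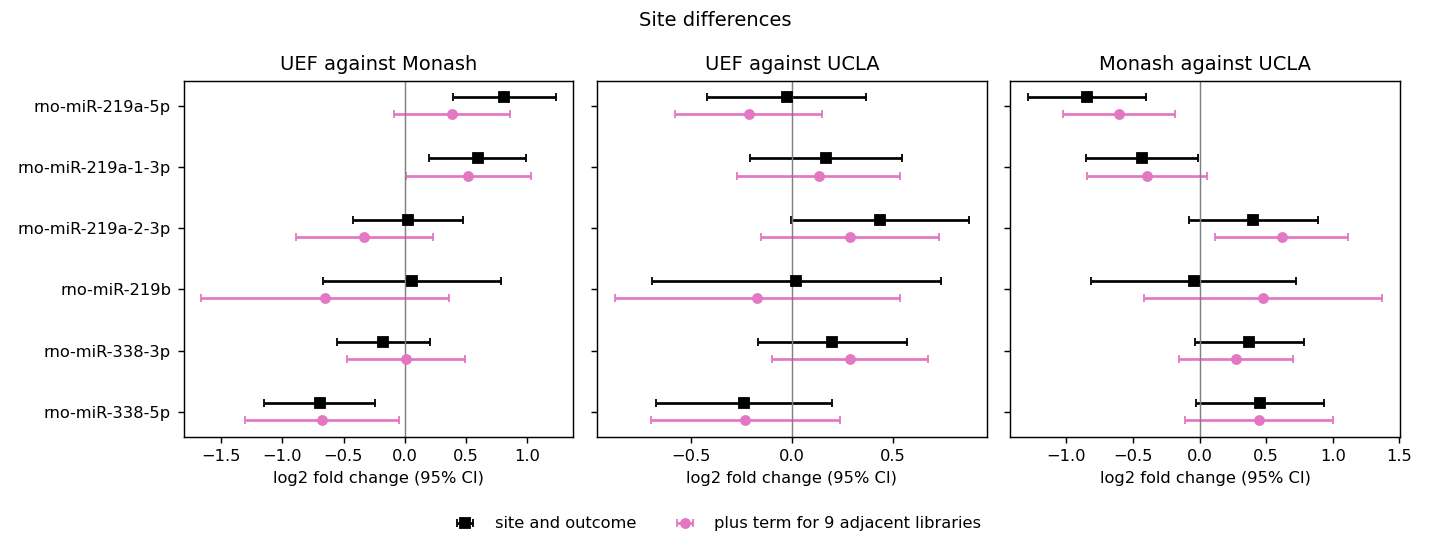
Fitted log2 fold changes between sites with 95% confidence intervals (edgeR) for the 6 members, from the model of site and outcome (squares) and with a term for the 9 adjacent libraries (circles). For rno-miR-219a-5p, UEF against Monash moves from 0.81 to 0.39 and Monash against UCLA from -0.84 to -0.60.

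The TBI effect was also compared between sites. It was called to differ for 8 of 751 miRNAs (1.07%) and for 0 of the 6 members. Without UEF sham 3 edgeR called 0 of all miRNAs (75 at an unadjusted p under 0.05). Within sites, 26 miRNAs were called between TBI and sham at UEF (3.46%; 8 without UEF sham 3), 0 at Monash (0%; 53 at an unadjusted p under 0.05) and 2 at UCLA (0.266%), and again 0 members. The members with the lowest p for a difference between sites were rno-miR-338-5p (edgeR adjusted p = 0.333) and rno-miR-219b (adjusted p = 0.361). Without the 9 libraries no Monash sham rat remains. In the 18 UEF and UCLA rats outside the 9, the TBI effect was called to differ between those sites for 0 of 751 miRNAs by edgeR (62 at an unadjusted p under 0.05). There the UEF effect minus the UCLA effect was 1.00 (SE 0.50, adjusted p = 0.658) for rno-miR-219b and 0.68 (SE 0.49, adjusted p = 0.835) for rno-miR-338-5p.

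At UEF, rno-miR-338-5p was at 12.8, 12.2, 12.6 and 18.1 CPM in the 4 sham rats. The TBI- rats there had 27.9, 18.0, 21.8 and 10.8 CPM and the TBI+ rats 30.1, 28.1, 17.4 and 34.3 CPM. Of the 8 injured rats, 5 lay above the highest sham rat. The fitted log2 difference was 0.74 (SE 0.28, 95% CI 0.16 to 1.31, edgeR adjusted p = 0.174; exact permutation p = 0.0545), and 0.75 (adjusted p = 0.408) without UEF sham 3. At Monash the order was the other way, with sham rats at 35.9, 30.5 and 46.3 CPM and injured rats at 21.5 to 34.4 CPM, a difference of -0.36 (SE 0.32, adjusted p = 0.987), and -0.19 without Monash sham 3, the rat at 46.3 CPM. UCLA sham rats had 17.7, 25.7 and 33.2 CPM and injured rats 17.7 to 31.6 CPM.

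rno-miR-219b at UEF was at 26.0, 19.1, 14.4 and 26.7 CPM in sham rats. UEF TBI- rats had 36.3, 44.6, 34.3 and 26.4 CPM and TBI+ rats 40.6, 31.4, 56.5 and 45.4 CPM. The groups met at a single rat on each side. The difference was 0.89 (SE 0.45, 95% CI -0.03 to 1.81, edgeR adjusted p = 0.339), and the exact permutation test of log2 CPM gave p = 0.00404, unadjusted. Without UEF sham 3, the lowest of them, the difference was 0.79 (adjusted p = 0.719). At UCLA, sham rats had 73.9, 30.9 and 37.7 CPM, TBI- rats 33.6, 23.6 and 59.1 CPM and TBI+ rats 13.7, 12.7 and 15.9 CPM. The fitted UCLA difference was -0.92 (SE 0.49, 95% CI -1.91 to 0.08, adjusted p = 0.510; exact permutation p = 0.131), and -0.47 without UCLA sham 1, the rat at 73.9 CPM. The 3 UCLA TBI+ rats, below all 6 others of that site, are the UCLA libraries among the 9. Monash rats spread from 7.86 to 74.2 CPM. Altogether 48 exact permutation tests were made on single members and 9 gave an unadjusted p under 0.05. None of the calls in this text rests on them.

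Pairs of members were compared within rats, where depth and scaling cancel. Only the Mir338 pair holds the arms of 1 hairpin alone, since rno-miR-219a-5p can come from either miR-219a hairpin. rno-miR-219a-5p exceeded rno-miR-219a-2-3p in 27 of 29 rats, with a median ratio of 2.13. Site medians of the ratio were 2.22 (UEF), 1.33 (Monash) and 2.91 (UCLA), and it was 1.35 in the 9 adjacent libraries and 2.48 in the other 20. rno-miR-219a-1-3p exceeded rno-miR-219a-2-3p in 28 of 29 rats (median ratio 2.31), although both hairpins give the same 5p arm. rno-miR-338-3p exceeded rno-miR-338-5p in 25 of 29 rats (median ratio 1.62), with site medians of 1.87 (UEF), 1.15 (Monash) and 1.29 (UCLA). Ligation and amplification can favour 1 sequence over another, so the ratios compare reads and not molecules.

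Covariation between members across rats was weak. Over the 15 pairs of members, Pearson's r of log2 CPM ran from -0.32 to 0.33 with a median of 0.03, and 0 pairs passed an adjusted p of 0.05 in permutation tests. Mir219-2 holds both rno-miR-219a-5p, which Mir219a1 holds too, and rno-miR-219a-2-3p. This pair had r = 0.01 and Spearman's rho = 0.07 (29 rats, permutation p = 0.962 and 0.703, adjusted over 15 pairs 0.962 and 0.903). Within sites r was -0.11 (UEF), 0.55 (Monash) and 0.06 (UCLA), and it was 0.08 without the 2 rats farthest from the median. In the 20 libraries outside the 9 adjacent ones r was -0.17. The arms of Mir338 had r = 0.07 and rho = 0.13 (permutation p = 0.702 and 0.502, adjusted 0.877 and 0.777). Within UEF, Monash and UCLA their r was 0.06, -0.39 and -0.01. It was 0.28 without the 2 farthest rats and -0.03 in the 20 libraries outside the 9. The highest value belonged to rno-miR-219a-1-3p with rno-miR-219a-5p, r = 0.33 and rho = 0.35 (permutation p = 0.0773 and 0.0652, adjusted 0.450 and 0.326). Its site values were -0.08 (UEF), 0.42 (Monash) and -0.50 (UCLA), and it was 0.35 without the 2 farthest rats. In the 20 libraries outside the 9 adjacent ones it was -0.01.

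The miRNAs with the most similar pattern were found from what remained of log2 CPM after site and outcome, by Spearman's rho over the 29 rats among 750 other miRNAs. For rno-miR-219a-5p they were miR-196a-3p (rho 0.58), miR-30c-2-3p (0.52), miR-3559-3p (0.50), miR-5132-5p (0.49) and miR-496-5p (0.48). The nearest member, rno-miR-219a-2-3p, came at place 137. rno-miR-338-3p was nearest to miR-3557-3p (0.53), miR-433-3p (0.49), miR-1956-5p (0.45), miR-1199-3p (0.45) and miR-92a-2-5p (0.45). Its own 5p arm came at place 344. The 5 nearest to rno-miR-219a-2-3p were miR-770-3p (0.68), miR-3592 (0.68), miR-873-5p (0.66), miR-186-3p (0.62) and miR-743b-3p (0.60). For rno-miR-219a-1-3p they were miR-374-3p (0.70), miR-211-3p (0.63), the joined row miR-450a-5p/450b-5p (0.58), miR-761 (0.56) and miR-33-3p (0.54). rno-miR-219b was nearest to miR-138-1-3p (0.73), miR-759 (0.70), miR-105 (0.67), miR-871-3p (0.67) and miR-344a-5p (0.65). For rno-miR-338-5p the list was miR-485-3p (0.63), miR-1896 (0.63), miR-668 (0.61), miR-21-3p (0.60) and miR-667-5p (0.59). No member was among the 5 nearest of another. Each list holds the 5 highest of 750 values of rho, and whether they exceed what chance gives was not tested. The difference between the adjacent libraries and the others was not removed before this comparison. Its part in these lists was not tested, and no list without those libraries is given.

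Other miRNAs known to act in the oligodendrocyte lineage were read beside the members. Of a list of 10, all tested, 0 were called between TBI and sham, where 1.2% of all tested miRNAs were called. Their log2 differences ran from -0.51 to 0.35 with a median of 0.00. Their summed level lay between 6439 and 21929 CPM in TBI rats. Sham rats had 7610 to 33965 CPM. The highest of them, UEF sham 3, is the rat with 57.6% liver counts and a TMM factor of 0.33. By share of counts the list took 1.13% in that rat, against a median of 1.39% in sham rats. Without UEF sham 3 the highest sham rat had 17764 CPM.

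Over the 3 sites 3 of these 10 were called, where 14.8% of all tested miRNAs were called. miR-145-5p (edgeR adjusted p = 0.00132), which is also abundant in smooth muscle, was called with the term for the 9 libraries (adjusted p = 0.00366) and without them (0.0292). miR-32-5p (adjusted p = 0.0223) had an adjusted p of 0.915 with the term and 0.521 without the 9. miR-17-5p (adjusted p = 0.0260), of the miR-17 to miR-92a cluster that promotes proliferation, had 0.0862 and 0.572.

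Markers of other sources were read in the same way. Of 8 neuron and brain miRNAs tested, 2 rose after TBI, miR-129-5p by 0.94 (SE 0.20, edgeR adjusted p = 0.0187) and miR-128-3p by 0.99 (SE 0.23, adjusted p = 0.0187), against the background of 1.2%. All 8 had a positive log2 difference, with a median of 0.49. The summed level of the list lay between 2706 and 8698 CPM in sham rats and between 4244 and 15649 CPM in TBI rats. Its median was 11920 CPM in the 9 adjacent libraries and 6421 CPM in the other 20. Without the 9, miR-129-5p was called at 1.17 (adjusted p = 0.00806) and miR-128-3p was at 1.00 (adjusted p = 0.0715). Neither was called without UEF (0.54 and 0.80, both adjusted p = 0.939) or without UEF sham 4 (0.95 and 0.93, both adjusted p = 0.0516). The call of miR-128-3p was also lost without UCLA (0.99, adjusted p = 0.0555). It was lost as well with the hemolysis ratio, explained with the liver miRNAs, as a covariate (0.75, adjusted p = 0.231). Scaled to miR-28-3p, miR-129-5p was at 0.88 (adjusted p = 0.207) and was not called.

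Of 4 liver miRNAs, miR-122-5p fell by 1.65 (SE 0.42, edgeR adjusted p = 0.0379) and miR-802-5p by 0.80 (SE 0.21, adjusted p = 0.0486). Both calls were lost without UEF sham 3, the rat with 57.6% liver counts. The differences were then -1.11 (adjusted p = 0.177) and -0.51 (adjusted p = 0.190), the smallest among 29 fits that each lacked 1 rat. Of those fits, 11 lost the call of miR-122-5p and 21 that of miR-802-5p. The fit without UEF sham 3 was among them and had the highest adjusted p of the 29 for both. Both calls were lost as well with the hemolysis ratio, the log2 ratio of miR-451-5p to miR-23a-3p, as a covariate. The differences were then -1.33 and -0.61 (adjusted p = 0.403 and 0.527). Within sites the median log2 difference of the 4 was -2.33 at UEF, where all 4 were called, -0.83 at Monash and 0.03 at UCLA, where 2 of the 4 were positive. Liver miRNAs took between 2.14% and 57.6% of sham counts (median 12.1%) and at most 24.4% of TBI counts (median 5.25%).

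Of 5 red cell miRNAs 0 were called over all sites, and all 5 had a positive difference there (median 0.62). The sites did not share this direction. Within sites the median was 0.94 at UEF, -0.38 at Monash, where 0 of the 5 were positive, and 1.16 at UCLA. At UEF 1 of the 5 was called, where 3.46% of all tested miRNAs were called. Red cell miRNAs took between 6.82% and 37.1% of counts in sham rats (median 23.1%) and 21.95% to 43.1% in TBI rats (median 32.7%). White cell and platelet miRNAs (0 of 4 called) took 1.75% to 12.3% and 4.83% to 13.6%, and muscle miRNAs (0 of 3) 0.0166% to 2.28% and 0.0185% to 3.23%. Of the listed miRNAs with a row, 0 were at 0 counts in any rat. The part of these sources in the members' values was not tested.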

How the data were processed

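Plasma RNA of 29 rats (1 library each) was sequenced with a QIASeq miRNA library kit. Per the study's methods the authors trimmed reads with cutadapt, identified inserts and unique molecular identifiers, aligned to the rat genome Rnor_6.0 with Bowtie and annotated miRNAs with miRBase. What the authors deposited is 1 table of 754 rows with raw counts, whole numbers that were not normalized. Whether reads of 1 molecule were merged is not given in the sources used here.

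The fit was made in R 4.3.3 with limma 3.58.1 and edgeR 4.0.16. Rows were kept by filterByExpr at 10 counts (751 rows), followed by TMM, a quasi-likelihood F test on site and outcome, and Benjamini-Hochberg adjustment over the 751 at 0.05. The TBI effect by site had a term for each site. Log2 CPM used a prior count of 2. Exact permutation tests were two-sided, with labels exchanged within site or, for sites, within outcome. Correlation p-values used 100000 permutations. Permutation tests were run with numpy 2.4.6 and scipy 1.17.1 under Python 3.11.15, and figures were drawn with matplotlib 3.10.9. Scripts were tested on simulated data.

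The named miRNAs were all 6 members, the called miRNAs of each fixed list and the 5 of highest residual rho per member. The members and lists were chosen with earlier results of these data known. Lists came from general knowledge, and 2 of 10 neuron and 2 of 5 muscle names had no row of their own. Alternatives were DESeq2 1.42.0, other scalings and filters, thinning to the lowest total, covariates, each site, outcome and rat left out, prior counts of 0.5 and 5, and CPM without TMM factors. A term for the 9 adjacent libraries, leaving them out, and comparing the TBI effect of UEF and UCLA without them were chosen after seeing the data. Totals of 1162307 to 5223469 counts limit precision, and counting errors cover counting alone. No label pairs rats of the same number, nor says that rats of a group are independent beyond being separate animals.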

Additional observations from a re-analysis of the deposited data

Results flagged for a closer look

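In 48 groups of 4 to 10 rats, 2 held a rat whose gap to the next was large for the range of the group, where chance gives about 1 in 20, or 2.4. Monash TBI+ 2 had the highest rno-miR-219a-2-3p among 8 Monash rats, 38.5 CPM (92 counts), and the next rat had 23.8 CPM. Without this rat the TBI against sham difference of rno-miR-219a-2-3p was 0.26. UEF sham 4 had the highest rno-miR-338-5p of the 4 UEF sham rats, 18.1 CPM (44 counts), and the next had 12.8 CPM.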

How the results depend on the processing

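No member was called between TBI and sham under any alternative, rno-miR-219a-2-3p stayed positive (0.26 to 0.51), and all 18 alternatives of the exact tests kept direction and side of 0.05. Signs of members near 0 turned. rno-miR-219a-5p was -0.019 with DESeq2, -0.015 with RLE factors, -0.041 with at least 10 counts in every rat, -0.074 without UEF, -0.068 without Monash and -0.086 without the 9 libraries. rno-miR-338-3p was 0.0037 with upper-quartile factors, 0.069 scaled to miR-28-3p, 0.0080 thinned, 0.12 with the hemolysis ratio, 0.088 without UEF and 0.045 without UCLA. rno-miR-338-5p was -0.028 thinned. Without UEF it was -0.30, rno-miR-219b -0.46 and rno-miR-219a-1-3p 0.039.

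Between sites, the adjusted p of rno-miR-219a-5p was 0.0699 scaled to miR-28-3p, 0.0938 in sham and 0.202 in TBI rats alone, 0.119 with the term for the 9 libraries and 0.917 without them. For Monash against UCLA it was 0.0731 scaled to miR-28-3p, 0.0662 in sham and 0.345 in TBI rats alone. The adjusted p of rno-miR-338-5p over sites was 0.0185 with DESeq2, 0.0411 with RLE and 0.0358 in sham rats alone. Causes were not tested, and fits with groups left out also had fewer rats.

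Counts of called miRNAs moved by more than 1.5 times as follows. TBI against sham (9): 25 with DESeq2, 17 with 10 counts in every rat, 15 without site, 4 with hemolysis, 0 (30 unadjusted) without UEF, 21 without Monash, 14 without UCLA, 16 with the term, 29 without the 9 and 5, all higher in TBI rats, without UEF sham 3. TBI- against sham (1): 20 with DESeq2, 3 with upper-quartile, 0 (56 unadjusted) with miR-28-3p, 2 thinned, 2 with hemolysis, 0 without UEF, UCLA or the 9 (38, 72 and 91 unadjusted) and 3 with the term. TBI+ against sham (4): 12 with DESeq2, 0 (62 unadjusted) with miR-28-3p, 1 thinned, 0 (23 unadjusted) without UEF, and 8 without Monash or UCLA. The 3 sites (111): 68 in sham, 40 in TBI rats and 43 without the 9. UEF against Monash (75): 46 with upper-quartile, 18 with miR-28-3p, 41 in sham and 0 (102 unadjusted) in TBI rats, 0 with the term and 0 without the 9. UEF against UCLA (70): 36 in sham, 38 in TBI rats and 46 without the 9. Monash against UCLA (41): 21 in sham, 23 in TBI rats and 0 (80 unadjusted) without the 9. TBI effect by site (8): 15 with DESeq2, 2 with RLE, 3 with upper-quartile, no filter, 10 counts in every rat or the term, 0 (87 unadjusted) with miR-28-3p or thinned and 5 with hemolysis. Between UEF and UCLA alone, without the 9, it was 0 (62 unadjusted). TBI against sham at UEF (26): 53 with DESeq2. At Monash (0): 4 with DESeq2 and 1 with hemolysis. At UCLA (2): 7 with DESeq2, 1 with miR-28-3p and 0 (49 unadjusted) with hemolysis.

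Rats of the same number were no more alike than others. Correlated deviations were over 0.1 in 7 of 28 same-numbered pairs (-0.42 to 0.40) and in 20 of 68 pairs of different number (-0.56 to 0.55). With the replicate number as a block, the calls of rno-miR-219a-1-3p and rno-miR-338-5p between UEF and Monash were lost (edgeR adjusted p = 0.113 and 0.0991), and counts were 5 for TBI against sham, 31 for UEF against Monash, 46 for UEF against UCLA and 0 (78 unadjusted) for TBI effect by site. rno-miR-338-3p was 0.013 with that block.

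With each rat left out in turn, counts ran from 1 (without UEF sham 4) to 16 (without Monash sham 2) for TBI against sham, 1 to 5 for TBI-, 1 to 7 for TBI+, 39 (without Monash TBI- 3) to 117 (without Monash TBI+ 2) for UEF against Monash, 25 to 59 for Monash against UCLA, 8 (without UEF sham 3) to 52 (without UEF sham 1) at UEF, 0 to 4 (without Monash TBI- 3) at Monash, 1 to 6 at UCLA and 0 (without UEF sham 3) to 10 for TBI effect by site. TBI against sham ran from -0.042 to 0.11 for rno-miR-219a-5p, -0.019 to 0.36 for rno-miR-219b and -0.064 to 0.10 for rno-miR-338-3p. The adjusted p over sites ran from 0.0396 to 0.219 for rno-miR-219a-1-3p and 0.0324 to 0.164 for rno-miR-338-5p. With 15 to 241 counts per value, depth limits single rats more than group means.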
